A study of Homo sapiens with 4 samples.

Results

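H3K27ac peaks were examined at 5 genes of the ETS family of transcription factors, ERG, ETS1, FLI1, SPI1 and SPIB, in the B-cell precursor acute lymphoblastic leukemia (BCP-ALL) cell lines REH and 697. The genes were chosen by name, and a peak was taken when it overlapped the hg19 gene body, extended by 10 kb on each side, by at least 1 bp. These loci span 691 kb and held 51 peaks in REH, of 44626 in all, and 88 in 697, of 74504 in all. All 5 genes had at least 1 peak in both cell lines. The share over all genes was not computed, so this count is a description only. Genome windows as wide as the ERG locus, with a peak in either line, were taken for comparison. At the 12.5th percentile they were already covered to 0.144% in REH and 0.0733% in 697.

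REH carries the ETV6/RUNX1 fusion, of which ETV6 is itself an ETS family gene, and 697 is a BCP-ALL cell line that does not carry it. Both are established lines grown in RPMI medium with fetal bovine serum, with no drug or other agent named in the labels, and each contributed 1 ChIP library and 1 input library. A difference due to the fusion, to any other property of the line or to the library cannot be told apart, and no test across cultures was possible. In REH, 65241657 of 70809588 ChIP tags remained after duplicate removal, and in 697 68911420 of 72826417. Over all peaks, 697 had 1.67 times as many peaks as REH and 1.49 times as many bases under them. Main values below rest on positions and lengths of peaks. For the 24932 pairs in which a REH peak and a peak of 697 overlapped only each other, the Spearman correlation between the lines was 0.473 for length but 0.025 for pileup, 0.034 for fold enrichment over input and 0.027 for −log10(p). Within each list, −log10(p) was also hardly related to length, with a Spearman correlation of 0.092 in REH and 0.065 in 697. Whether these columns belong to the positions beside them is not known, so peak heights were not compared, and a filter on p or FDR may keep peaks that do not have that p.

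ETS factors share a DNA-binding domain, the ETS domain, that recognises sites with the core GGAA, read as TTCC on the other strand. ERG and FLI1 are closely related members known from hematopoietic stem cells, megakaryocytes and endothelium, and ETS1 is a founding member known from lymphocytes. SPI1, which encodes PU.1, and SPIB form a separate subfamily. PU.1 is required for myeloid and early lymphoid development, and SPIB is known from B cells and plasmacytoid dendritic cells. Acetylation of lysine 27 of histone H3 (H3K27ac) marks active promoters and enhancers, and long runs of it mark dense groups of enhancers.

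Promoters are shown only for ERG and SPIB, because only 2 of the 5 genes were matched to RefSeq promoters. Promoters of ERG and SPIB were found in the RefSeq table on GRCh38.p14, which is not the build of the peaks, so the coordinates are not interchangeable. Those of ETS1, FLI1 and SPI1 were not analysed here. Each line holds the 250 bases before a transcription start, 5′ to 3′ on the strand of the gene, with GGAA or TTCC in capitals.
ERG, outermost start, chr21:38660668-38660917, minus strand: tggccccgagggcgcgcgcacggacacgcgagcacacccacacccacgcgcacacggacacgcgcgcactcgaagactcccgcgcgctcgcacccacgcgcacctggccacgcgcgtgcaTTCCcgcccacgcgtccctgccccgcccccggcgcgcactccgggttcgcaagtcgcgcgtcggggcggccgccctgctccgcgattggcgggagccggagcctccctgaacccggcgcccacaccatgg
ERG, start 162.2 kb further into the gene, chr21:38498505-38498754, minus strand: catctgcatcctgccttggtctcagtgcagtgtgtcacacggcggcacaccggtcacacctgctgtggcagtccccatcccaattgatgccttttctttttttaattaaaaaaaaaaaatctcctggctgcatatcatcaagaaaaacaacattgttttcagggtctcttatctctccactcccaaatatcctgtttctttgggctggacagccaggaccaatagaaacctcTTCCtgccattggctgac
SPIB, chr19:50418688-50418937, plus strand: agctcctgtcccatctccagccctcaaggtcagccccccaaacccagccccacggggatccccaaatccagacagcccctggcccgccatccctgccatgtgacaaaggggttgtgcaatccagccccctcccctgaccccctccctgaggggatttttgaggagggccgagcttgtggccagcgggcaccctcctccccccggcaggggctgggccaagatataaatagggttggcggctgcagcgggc
The outermost ERG promoter held 1 core and 44 CG dinucleotides, a number that only 0.769% of the 35116 promoters in the table reached. The inner ERG promoter printed here held 1 core and 3 CG dinucleotides, and a neighbouring start had a promoter that overlaps it, with 2 cores and 3 CG dinucleotides. A further ERG promoter, 75.7 kb into the gene, held 4 cores and 2 CG dinucleotides. The SPIB promoter held no core and 7 CG dinucleotides. GGAA or TTCC was present in 92.7% of all promoters of this length, with a median of 3 cores and of 11 CG dinucleotides. A match describes letters and is not evidence of a binding site.

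Over the 5 loci together, 697 had 1.73 times as many peaks as REH, close to the ratio of the whole lists, but not more bases under them. Peaks covered 157.1 kb in REH and 149.5 kb in 697, which is 0.951 times the REH value, against 1.49 times over all peaks. ERG supplied 60.4% of these bases in REH and 53.9% in 697. REH peaks at the loci were longer than those of 697, with a median of 1307 bp against 1051.5 bp, and both medians were above those of the whole lists, 1060 bp and 871 bp. In REH, 20 of the 51 peaks reached 2000 bp (39.2%, against 22.9% of all REH peaks), and in 697 24 of 88 did (27.3%, against 19.2%). Peaks of at least 10 kb numbered 3 in REH and 1 in 697, and all 4 lay in ERG.

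**Figure D1:**
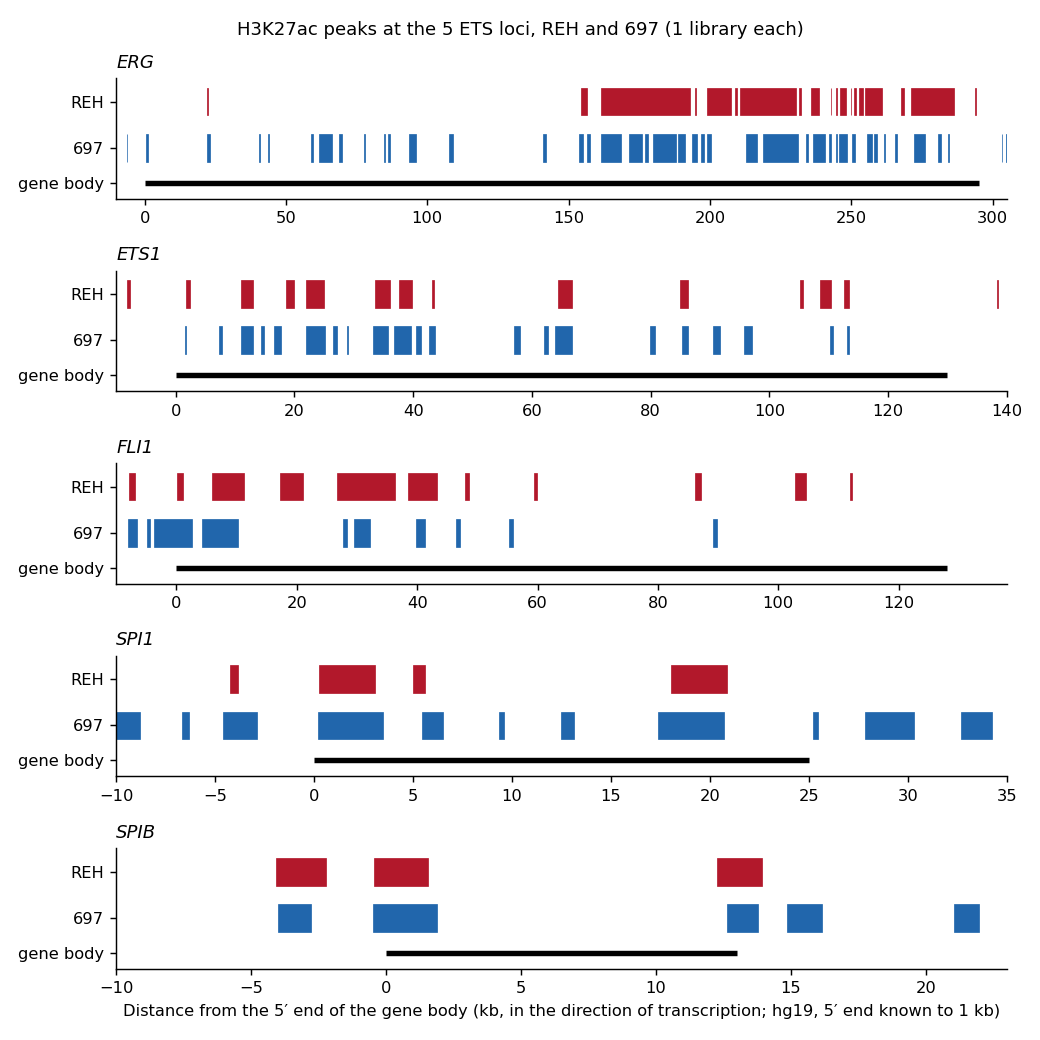
Positions of the H3K27ac peaks at the 5 loci, with the distance from the 5′ end of each gene body in kb along the direction of transcription on the horizontal axis (hg19). Red blocks are REH peaks, blue blocks are peaks of 697, and the black line is the gene body. In ERG the REH blocks lie almost all beyond 150 kb, while blocks of 697 lie along the whole gene.

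Most long peaks at the ETS loci lay over a peak of the other line. In REH, 34 of 51 overlapped a peak of 697 by at least 1 bp, or 66.7% (exact 95% binomial interval 52.1 to 79.2), beside 64.1% of all REH peaks. In 697, 44 of 88 overlapped a REH peak, or 50% (39.1 to 60.9), beside 38.9% of all peaks of 697. The intervals cover counting error only. Among peaks of at least 2000 bp, 19 of 20 in REH were shared, with 86.5% over the whole list, and 20 of 24 in 697, with 73% over the whole list. The REH exception lay in FLI1, and the exceptions in 697 were 3 peaks at ERG and 1 at SPI1.

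**Figure D2:**
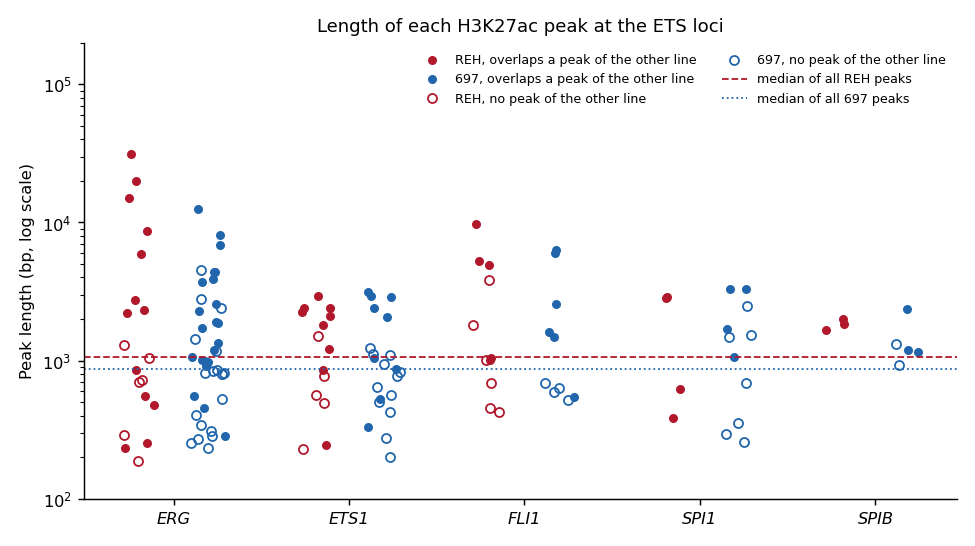
Length of every peak at the 5 loci in bp on a log scale, by gene and cell line. Filled circles overlap a peak of the other line, open circles do not, and the dashed and dotted lines are the medians of all REH peaks and all peaks of 697. The 3 circles above 10 kb in REH and the 1 in 697 belong to ERG, and of the open circles 1 in REH and 4 in 697 reach 2000 bp.

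The bases under peaks differed by less than 2-fold between the lines at 4 of the 5 loci. SPI1 was the locus that differed by 2-fold or more, with more bases covered in 697. As a background, the genome was divided into windows as wide as each locus, and those with a peak in either line were kept. A 2-fold difference was common among them, at 53.8% of the windows of ERG width, 57.7% for ETS1, 57.4% for FLI1, 64.6% for SPI1 and 66.6% for SPIB. Windows of SPI1 width with at least 2-fold more bases in 697 made up 42.6%. Among the 5 loci a 2-fold difference was seen at 1 of 5, a count too small to set against these percents. The windows were also not matched to the loci for coverage. At SPI1 width their median was 1182 bp in REH and 1754 bp in 697, against 6756 bp and 16136 bp at the locus. The percents therefore do not show how common a 2-fold difference is at loci as covered as these. ERG and FLI1 had more covered bases in REH, and ETS1, SPI1 and SPIB in 697. Without flanks the ratio of 697 to REH was 0.983 at SPIB. With peaks listed at −log10(p) of at least 10 it was 0.428 at ETS1 and 0.728 at SPIB, and 4 of the 5 loci differed 2-fold, values that carry the doubt about that column.

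**Figure D3:**
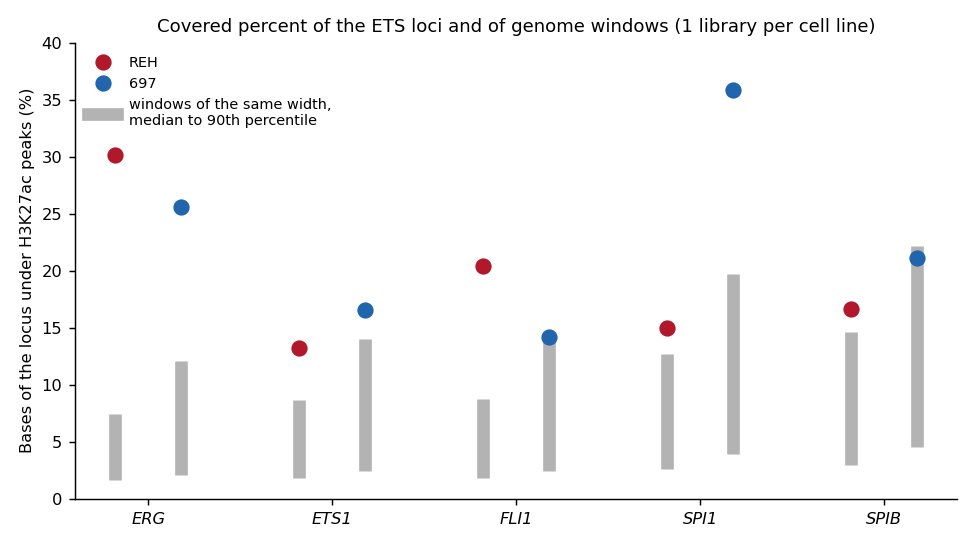
Percent of the bases of each locus under H3K27ac peaks in REH (red) and 697 (blue), 1 library each. Grey bars span the median to the 90th percentile of genome windows of the same width in the same line. All REH points and all points of 697 except SPIB lie above their grey bar, ERG by the widest margin in REH.

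ERG (ENSG00000157554, minus strand, chr21:39739-40034 in kb of hg19) had the highest covered percent of the 5 loci in REH, in a few very long peaks. The 315 kb locus held 19 peaks in REH and 41 in 697, yet 94889 bp were covered in REH against 80578 bp in 697, or 30.1% and 25.6% of the locus. REH thus had fewer peaks but 1.18 times the bases. Of the 7358 genome windows of this width, 8 (0.109%) were covered at least as much in REH and 82 (1.11%) in 697. The 3 longest REH peaks, of 31461 bp, 19903 bp and 15147 bp, supplied 70.1% of the REH bases. The peak of 31461 bp (chr21:39841041-39872501) ranked 5 by length among all 44626 REH peaks. The longest peak of 697, 12525 bp at chr21:39802736-39815260, ranked 174 of 74504 and lay for 94.1% of its length under the REH peak of 19903 bp.

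The stretch under the longest REH peak was also acetylated in 697, but as separate peaks. It lay 161.5 to 193.0 kb from the 5′ end, and 5 peaks of 697 covered 72.7% of it. Among these were peaks of 8100 bp (chr21:39845912-39854011), 6840 bp (chr21:39865636-39872475), 4417 bp and 2307 bp, each wholly inside the REH peak. The edge nearest the 5′ end of the gene nearly coincided, with 26 bp between the REH peak and that of 6840 bp. In RefSeq on GRCh38, inner starts of ERG lie 162.2 kb after the outermost start, at the second promoter printed above. These distances were each measured on their own build and were not converted. The REH peak of 19903 bp (chr21:39803471-39823373) was likewise covered to 78.9% by 2 peaks of 697. In contrast, 33.0% of the REH peak of 15147 bp (chr21:39747663-39762809) and 19.7% of one of 8622 bp (chr21:39826588-39835209) lay under peaks of 697.

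The remaining REH peaks of at least 2000 bp at ERG measured 5879 bp (chr21:39773254-39779132), 2735 bp (chr21:39795613-39798347), 2310 bp (chr21:39877497-39879806) and 2207 bp (chr21:39785761-39787967). Each overlapped a peak of 697. In 697 the other shared peaks of this length were 4363 bp (chr21:39793148-39797510), 3923 bp (chr21:39817397-39821319), 3715 bp (chr21:39757974-39761688) and 2564 bp (chr21:39785697-39788260). All of these lay in the 3′ 147.5 kb of the gene body. The 6 unshared REH peaks at ERG were 187 to 1307 bp long, and all 6 lay there too.

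In the 147.5 kb of ERG nearest the 5′ end, the ratio between the lines was far larger than in the rest of the gene. REH had 1 peak of 554 bp there (chr21:40011403-40011956), 0.376% of the stretch, and 697 had 13 peaks covering 14804 bp, 10.0% of it, a ratio of 26.7. In the remaining 147.5 kb, REH had 18 peaks over 94335 bp (64.0%) and 697 had 25 over 64812 bp (43.9%), so there REH had 1.46 times the bases. Counted in bases, the lines differed more here than near the 5′ end, where the ratio rests on 1 short REH peak. A run of 131.6 kb without any REH peak (chr21:39879807-40011402) held 13848 bp of peaks in 697. They included peaks of 4517 bp (chr21:39967668-39972184) and 2419 bp (chr21:39937984-39940402) with no REH peak. The third unshared peak of at least 2000 bp in 697 measured 2802 bp (chr21:39726633-39729434) and straddled the outer edge of the 3′ flank. A peak of 838 bp in 697 lay 0.399 to 1.24 kb from the 5′ end (chr21:40032764-40033601), at the end of the gene whose outermost, CG-rich promoter is printed above, and REH had none there. The division into parts was chosen after the values were seen. With peaks listed at −log10(p) of at least 10, the 5′ part held no base in either line and the 3′ part held 21968 bp in REH and none in 697.

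**Figure D4:**
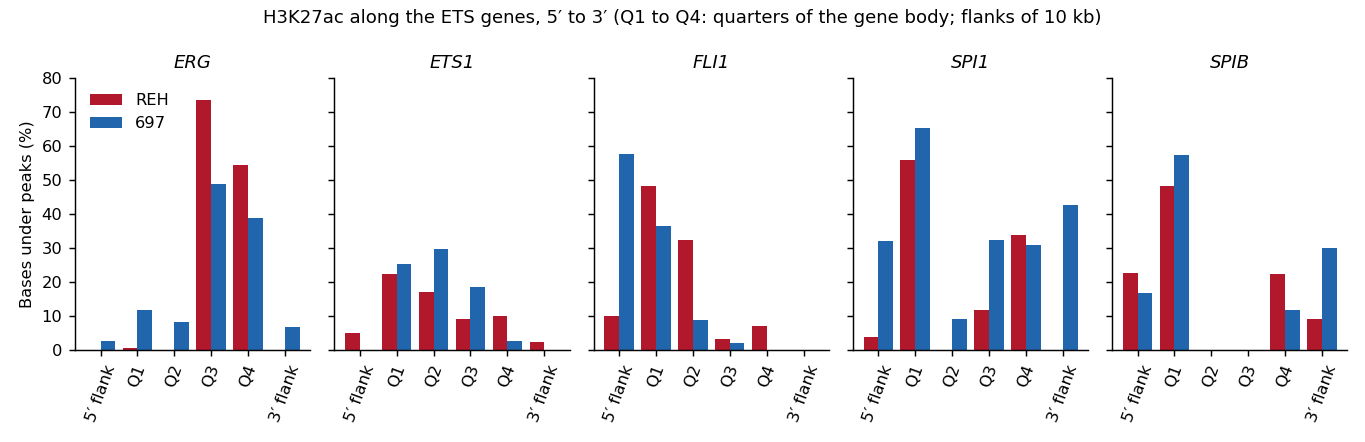
Percent of bases under H3K27ac peaks in the 10 kb flanks and in 4 equal parts (Q1 to Q4, 5′ to 3′) of each gene body, REH in red and 697 in blue. In ERG Q3 and Q4 reach 73.5% and 54.4% in REH against 48.9% and 39.0% in 697, while Q1 and Q2 are at 0.751% and 0% against 11.8% and 8.26%.

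FLI1 (ENSG00000151702, plus strand, chr11:128556-128684 in kb), the closest relative of ERG among the 5, was the other gene with more bases covered in REH. The 148 kb locus held 11 peaks over 30177 bp (20.4%) in REH and 10 peaks over 20953 bp (14.2%) in 697, a ratio of 1.44. At least as many bases were covered in 1.56% of the 13244 windows of this width in REH and in 9.67% in 697. Within the gene body alone the bases were 29168 bp and 15170 bp, 1.92 times as many in REH, whereas the flanks held 1009 bp in REH and 5783 bp in 697. The 2 lines had 10845 bp in common, 35.9% of the REH bases and 51.8% of those of 697. Over all peaks 58.5% of the REH bases lay under peaks of 697 and 39.1% in the reverse direction.

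The longest FLI1 peaks of the lines lay over different stretches. Q1 was the most covered part of the gene body in both lines, at 48.3% in REH and 36.4% in 697. The longest peak of 697, 6306 bp at chr11:128552344-128558649, lay over the 5′ end and extended into the 5′ flank. REH had a peak of 1050 bp there (chr11:128556095-128557144), wholly inside that of 697. The longest REH peak, 9745 bp at chr11:128582650-128592394, lay 26.6 to 36.4 kb into the gene and ranked 282 of 44626. In 697 that stretch held 2 peaks that covered 3125 bp of it, 32.1%, of which 1 measured 2582 bp (chr11:128585540-128588121). A REH peak of 3823 bp (chr11:128573148-128576970) had no counterpart, and one of 4905 bp (chr11:128594456-128599360) was covered to 30.0%. Peaks of 5235 bp in REH (chr11:128561983-128567217) and 6006 bp in 697 (chr11:128560166-128566171) shared 4189 bp. In the 3′ 64 kb of the gene, coverage was low in both lines, at 3290 bp in REH and 691 bp in 697.

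ETS1 (ENSG00000134954, minus strand, chr11:128328-128458 in kb) had shorter peaks, and its longer ones lay at nearly the same positions in both lines. The 150 kb locus held 14 peaks over 19830 bp (13.2%) in REH and 21 peaks over 24829 bp (16.6%) in 697, a ratio of 1.25 in favour of 697. Windows covered at least as much made up 4.53% of the 13145 in REH and 7.25% in 697. Both lines had 5 peaks of at least 2000 bp, all 10 of them shared, and they formed 5 pairs. Over the whole lists, 86.5% of REH peaks and 73% of peaks of 697 of that length were shared. The longest pair measured 2937 bp in REH (chr11:128433075-128436011) and 3121 bp in 697 (chr11:128432900-128436020), about 22 to 25 kb from the 5′ end. The other pairs shared 2051 to 2420 bp. In REH they measured 2107 bp (chr11:128444902-128447008), 2423 bp (chr11:128421969-128424391), 2263 bp (chr11:128418193-128420455) and 2420 bp (chr11:128391228-128393647). Their partners in 697 measured 2060 bp (chr11:128444958-128447017), 2423 bp (chr11:128422259-128424681), 2875 bp (chr11:128418326-128421200) and 2947 bp (chr11:128391162-128394108). Of its peaks of any length, 9 of 14 were shared in REH and 9 of 21 in 697, near the 64.1% and 38.9% of the whole lists. The unshared ones were all shorter than 2000 bp. Near the 5′ end each line had 1 short peak, 776 bp in REH (chr11:128455514-128456289) and 201 bp in 697 (chr11:128456299-128456499), which missed each other by 9 bp.

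ETS1 and FLI1 are neighbours that point away from each other. The 98 kb between their 5′ ends held more bases under H3K27ac peaks in 697 than in REH. This stretch overlaps the flanks of both loci, was chosen after the values were seen, and was described separately from these loci. REH had 13 peaks over 23732 bp (24.2%) and 697 had 12 peaks over 55367 bp (56.5%). That was 2.33 times as many bases from about as many peaks, against 1.49 times over all peaks. Windows of 98 kb were not counted. A 2-fold difference was found in 57.7% of the 150 kb windows and 64.6% of the 45 kb windows above, unmatched for coverage. The longest peak of 697 measured 23372 bp (chr11:128477711-128501082), ranked 20 among all 74504, and lay between a point 19.7 kb before the 5′ end of ETS1 and one 54.9 kb before that of FLI1. It overlapped 6 REH peaks, which covered 46.7% of it, among them the longest REH peak of the stretch at 6790 bp (chr11:128478479-128485268). A pair nearer FLI1 measured 5900 bp in REH (chr11:128530669-128536568) and 9048 bp in 697 (chr11:128527891-128536938), and a further pair 3661 bp and 5608 bp. In all, 12 of 13 peaks in REH and 8 of 12 in 697 were shared, beside 64.1% and 38.9% of the whole lists. Of the 12 in REH, 6 overlapped the peak of 23372 bp in 697. The shared peaks named here were longer in 697. In the ERG body, by contrast, the 3 longest peaks were in REH. Some shorter pairs there were longer in 697, such as one of 2735 bp in REH and 4363 bp in 697. With peaks listed at −log10(p) of at least 10 the stretch held 11734 bp in REH and none in 697, the opposite direction, with the same doubt about that column.

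**Figure D5:**
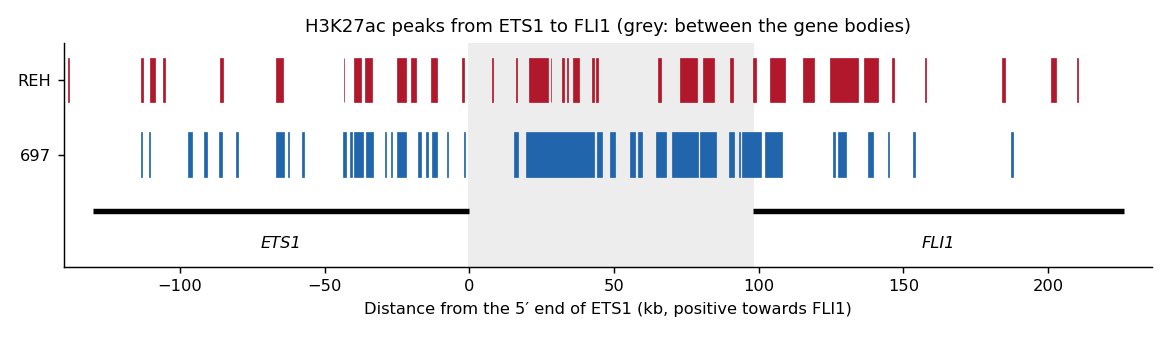
H3K27ac peaks from ETS1 to FLI1, with the distance from the 5′ end of ETS1 in kb, positive towards FLI1, on the horizontal axis. Red blocks are REH peaks, blue blocks are peaks of 697, black lines are the gene bodies and grey is the 98 kb between them. The block of 23372 bp in 697 lies over 6 REH blocks, and the longest block inside FLI1 is one of REH.

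SPI1 (ENSG00000066336, minus strand, chr11:47376-47401 in kb) was the locus called different, and most of the difference lay in its flanks. The 45 kb locus held 4 peaks over 6756 bp (15.0%) in REH and 11 peaks over 16136 bp (35.9%) in 697, a ratio of 2.39. Windows covered at least as much made up 7.52% of the 29891 in REH and 2.86% in 697. All 4 REH peaks were shared, beside 64.1% of all REH peaks, and 90.6% of the REH bases lay under peaks of 697. Within the gene body the values were 6370 bp and 8644 bp, a ratio of 1.36, while the flanks held 386 bp in REH and 7492 bp in 697. The locus did not reach 2-fold without flanks, nor with flanks of 25 kb, where the ratio was 1.83.

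The longest peaks inside SPI1 formed a pair at each end of the gene. At the 5′ end a REH peak of 2878 bp (chr11:47397905-47400782) lay inside one of 3281 bp in 697 (chr11:47397520-47400800). About 18 to 21 kb into the gene a REH peak of 2866 bp (chr11:47380131-47382996) shared 2689 bp with one of 3318 bp in 697 (chr11:47380308-47383625). Between these pairs, a REH peak of 626 bp and a peak of 1061 bp in 697 shared 165 bp. There 697 also had peaks of 691 bp and 293 bp with no REH peak. Beyond the 3′ end 697 had 3 peaks over 4270 bp of the flank, the longest 2473 bp (chr11:47370677-47373149), and REH had none. In GENCODE on GRCh38, MYBPC3, a heart muscle gene, begins 2.16 kb past the 3′ end of SPI1, so on that build the flank reaches into MYBPC3. Before the 5′ end, the 10 kb flank held 386 bp in REH and 3222 bp in 697, but the next 15 kb held 8485 bp and 10363 bp.

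SPIB (ENSG00000269404, plus strand, chr19:50922-50935 in kb) differed little between the lines. The 33 kb locus held 3 peaks over 5489 bp (16.6%) in REH and 5 peaks over 6962 bp (21.1%) in 697, a ratio of 1.27. Windows covered at least as much were 8.08% of the 35930 in REH and 10.8% in 697, more than for the other loci in either line. Within the body, 2294 bp and 2255 bp were covered. At the 5′ end, the REH peak of 2001 bp (chr19:50921567-50923567) lay wholly under one of 2351 bp in 697 (chr19:50921521-50923871). All 3 REH peaks were shared, beside 64.1% of all REH peaks. The locus is short, and on GRCh38 POLD1 ends 0.919 kb before it and MYBPC2 begins 1.58 kb after it, so its flanks hold parts of other genes there, and a further protein-coding gene model, ENSG00000142539, overlaps it.

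A peak within 2 kb of the 5′ end was present at 4 of the 5 genes in REH and at 5 of 5 in 697, with ERG as the exception in REH. The share over all genes needs an hg19 annotation and was not computed, so these counts have no background. Gene ends are known to 1 kb only. The ETS1 peaks lay 1.711 to 2.486 kb (REH) and 1.501 to 1.701 kb (697) into the gene, so counting them may depend on that rounding. ERG, the gene with the highest covered percent in REH, was the gene without a peak within 2 kb of its outermost 5′ end in that line.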

How the data were processed

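The authors mapped the reads to hg19 (Bowtie in the Methods, Bowtie2 per the labels). MACS 2.1.0.20150731, given in the file headers, called broad peaks in each line against its own input at q-value cutoffs of 0.05 and 0.1. The authors deposited for each peak its length, its pileup signal, its fold enrichment as a ratio, and its p-value and q-value as −log10. Coordinates were checked as hg19: a chromosome 1 peak ends at 249220297, beyond the GRCh38 length of 248956422. Gene bodies are known to 1 kb and were not converted. The windows were narrowed or widened by 1 kb at each end. The SPI1 bases then lay between 6756 and 7151 bp in REH and between 14901 and 16434 bp in 697. At ERG those in 697 lay between 80144 and 81578 bp, and ETS1, FLI1 and SPIB did not change.

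Bases under the union of peaks were counted per locus, and a locus was called at a 2-fold difference or with peaks in 1 line only. All 5 genes were named, with the longest peak, the peak at the 5′ end and every peak of at least 2000 bp. The members, lists and alternatives were chosen with earlier results of these data known. Strands and neighbours came from GENCODE v44 and promoters from RefSeq, both on GRCh38. Other ETS genes and cell type markers need an hg19 annotation and were not analysed here. The scripts were tested on simulated data. Computations used pandas 2.3.3, numpy 2.4.6 and scipy 1.17.1 under Python 3.11.15, with matplotlib 3.10.9 for plots.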

Additional observations from a re-analysis of the deposited data

How the results depend on the processing

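Of 46 counts and shares recomputed under the alternatives, 15 moved beyond their limits. The number of loci differing 2-fold fell from 1 to 0 without flanks, with 25 kb flanks and at a fold of 3, and rose to 4 at −log10(p) of at least 10. Peaks of at least 1000 bp numbered 31 in REH and 46 in 697, of which 65.2% in 697 were shared. An FDR of at most 5% left 51.2% of the REH peaks shared, beside 46.7% of the whole list, and equal peak numbers by length gave 63.3% in 697. At −log10(p) of at least 10, 17 REH and 8 peaks of 697 remained, with 5.88% and 12.5% shared, beside 6.21% and 9.16% of the whole lists at that threshold. Whether the p and FDR columns belong to the listed positions is not known, and alternatives that use them carry that doubt. Counted by midpoints in a peak of the other line, 51.0% and 37.5% were shared. Across 8 alternatives, ERG and FLI1 kept more bases in REH and SPI1 kept more in 697. ETS1 kept its direction in 7, with a ratio of 697 to REH of 0.428 at −log10(p) of at least 10, and SPIB in 6, with 0.983 without flanks and 0.728 at that threshold. The cause of these shifts was not tested. The parts of ERG and the ETS1 to FLI1 stretch were chosen after the values were seen, and were rerun under 5 of the alternatives. The 3′ part of ERG kept its direction in 5. Its 5′ part and the ETS1 to FLI1 stretch did so in 4, the exception being −log10(p) of at least 10. No paired analysis was possible because each cell line has 1 ChIP library. A base without a peak fell short of the calling threshold at this depth and may still carry H3K27ac.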
